A study of Phyllostachys violascens with 18 samples.

Results

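The early steps of tetrapyrrole synthesis were followed through 10 genes of the bamboo Phyllostachys violascens, chosen by gene identifier out of the 42520 genes in the deposited table. Of these 10 genes, 3 are described as glutamyl-tRNA reductase 2 (GluTR), 2 as glutamate-1-semialdehyde aminomutase (GSA), 1 as delta-aminolevulinic acid dehydratase (ALAD) and 4 as porphobilinogen deaminase (PBGD). All 10 passed the filter on low counts and were among the 37595 genes tested. The descriptions come from relatives in other grasses, so a name stands for the closest described protein and not for a function shown in bamboo.

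Tetrapyrroles are the ring molecules behind chlorophyll, haem, sirohaem and the chromophore of phytochrome, and in plants they are built in the plastid from glutamate. GluTR reduces glutamate carried on its transfer RNA, GSA rearranges the product to delta-aminolevulinic acid, ALAD joins pairs of that molecule into porphobilinogen, and PBGD links porphobilinogens into an open chain that later enzymes close and colour. GluTR is known in other plants as the main control point of the pathway, held back by the FLU protein and by haem, because porphyrins made in excess harm cells in light.

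RNA was measured in leaves of the typical plant of the species and of its variant ‘Flavistriatus’, which the series took up for its leaf colour. Each plant type was sampled as young, immature and mature leaves with 3 libraries per stage, which gave 6 groups and 18 libraries, all from plants kept in a greenhouse. The field for tissue gives culms but the titles of the samples give leaves, which was taken as right. Whether libraries 1 to 3 of a group stem from different plants is not stated, and p-values therefore reflect only how these samples vary, which may be technical. In leaves made of many cell types, fewer cells of a type and less RNA per cell cannot be told apart.

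Total counts lay between 30268130 and 58374889 per library. The 10 genes together took 0.0644% to 0.0837% of all counts in typical young, 0.167% to 0.230% in typical immature and 0.113% to 0.119% in typical mature leaves. In the variant they took 0.0586% to 0.0826% in young, 0.0763% to 0.0775% in immature and 0.0309% to 0.0951% in mature leaves. Variant mature replicate 3 differed from replicates 1 and 2 in most of the values below, and results that rest on it are given without it as well. A list of 20 mesophyll markers, 14 chlorophyll a-b binding proteins and 6 small subunits of Rubisco, was expressed in every group, and 0 of the 20 genes were at 0 in all libraries. Its summed level was 2746 to 4128 FPKM in typical young, 46593 to 50863 in typical immature and 21451 to 22662 in typical mature leaves. The sums were 1444 to 2644 in variant young, 6028 to 6096 in variant immature and 2662 to 14843 in variant mature leaves, the lowest in replicate 3. FPKM is a read count scaled for gene length and library size. Of the 17 markers tested, 16 were lower and 1 was higher in variant than in typical immature leaves, and 10 were lower in mature leaves. Of 44 genes tested from a list for xylem and secondary walls, 10 were lower and 16 higher in variant immature leaves, and 23 were higher in mature leaves, with sums of 71.7 to 139 against 34.2 to 54.8 FPKM. The counts lower and higher in the variant were 2 and 4 of 25 for dividing cells, 3 and 4 of 21 for meristem, 2 and 0 of 4 for phloem and 0 and 0 of 2 for epidermis in immature leaves. In mature leaves they were 0 and 5, 3 and 3, 0 and 0, and 0 and 0. Over all genes 23.1% were lower and 21.7% higher in variant immature leaves, and 9.65% lower and 14.9% higher in variant mature leaves. Several of these marker counts lie near or under those shares, among them the 10 of 44 lower for xylem and secondary walls. The lists go by gene description only. That for xylem and secondary walls holds 47 laccases among 52 genes, and that for meristem 23 knotted-1-like and rough sheath genes. The meristem sum was 257 to 282 FPKM in typical young and 455 to 517 in typical mature leaves. For dividing cells it was 307 to 413 and 56.3 to 63.5 FPKM. Whether the xylem and meristem lists mark those tissues here was not tested. Marker levels move with several of the results below, and their part in them was not tested.

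In young leaves none of the 10 genes differed between plant types beyond the test's threshold, whereas in immature leaves the abundant GluTR genes, both GSA genes and ALAD were lower in the variant. The abundant GluTR genes and both GSA genes were called lower in mature leaves too. Of these, GSA PH02Gene08607 overlapped between plant types there, and its call was lost in 24 of 27 alternative fits. None of the 4 mature calls held when only the mature libraries were fitted. Between plant types the edgeR quasi-likelihood test, at a Benjamini-Hochberg adjusted p under 0.05 over all genes, called 0 of the 10 genes in young leaves, where it called 0.0213% of all genes lower and 0.149% higher (0.17% called). At an unadjusted p under 0.05 it also gave 0 of the 10, against 7.05% of all genes. DESeq2 called 0, against 1.32% of all genes, and limma on FPKM called 0, against 0.676% or 0.553% at pseudocounts of 1 and 0.1. In immature leaves 5 of the 10 were lower and 1 was higher in the variant, where 23.1% of all genes were lower and 21.7% higher (44.9% called). In mature leaves 4 were lower and 0 higher, against 9.65% and 14.9% of all genes (24.5% called). The median log2 fold change of the 10 genes was -0.08 in young, -1.06 in immature and -0.67 in mature leaves, against medians over all genes of 0.00, -0.01 and 0.09. The mature median of the 10 was -0.28 without variant mature replicate 3 and -1.07 without variant mature replicate 2. The young one was -0.32 without variant young replicate 1 and 0.03 without variant young replicate 2. The count of 5 lower in immature leaves became 3 without typical immature replicate 3 or any 1 variant immature library. The share called in immature leaves lies near that of all genes, and the lean to lower values is given as a description.

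Stage by stage, RNA of both abundant GluTR genes and of ALAD rose as typical leaves passed from young to immature, and that of 1 of these GluTR genes and of 2 PBGD genes fell towards maturity. From young to immature typical leaves 5 of the 10 genes rose and 1 fell, against 29.2% and 30.4% of all genes (59.6% called). From immature to mature typical leaves 3 fell and 0 rose, against 16.2% and 13.2% of all genes (29.4% called). Both shares called in the typical plant lie near those of all genes, and the directions are given as a description. In the variant 1 rose and 0 fell from young to immature leaves, where 27.0% of all genes rose and 28.6% fell (55.6% called). From immature to mature variant leaves 1 fell and 0 rose, against 11.6% and 15.8% of all genes (27.3% called). The change from young to immature leaves itself differed between plant types for 4 of the 10 genes, 3 with a smaller and 1 with a larger value in the variant, against 13.9% and 12.5% of all genes (26.3% called). The change from immature to mature leaves differed for 2, both with a larger value in the variant, against 11.1% of all genes larger and 6.34% smaller (17.4% called). The shares of all genes above are from the fit with all libraries, so counts from fits with 1 library left out cannot be set against them. Leaving out variant mature replicate 3 moved several of the counts above. The groups share 1 estimate of the spread in the fit. This library therefore also enters the standard errors and p-values of comparisons that it is not part of. In the typical plant 8 then rose from young to immature leaves and 6 fell from immature to mature leaves, in the variant 1 rose and 1 fell from immature to mature leaves, and the first interaction was called for 8 genes. In the other direction, 3 rose from young to immature typical leaves without typical young or typical immature replicate 2 or 3. The first interaction was called for 2 genes without typical young 3, variant young 3 or variant immature 2. The variant count from young to immature leaves was 0 without variant young replicate 2, and 3 fell from immature to mature variant leaves without variant mature replicate 2. These comparisons share libraries with each other, so their counts are not independent.

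**Figure D1:**
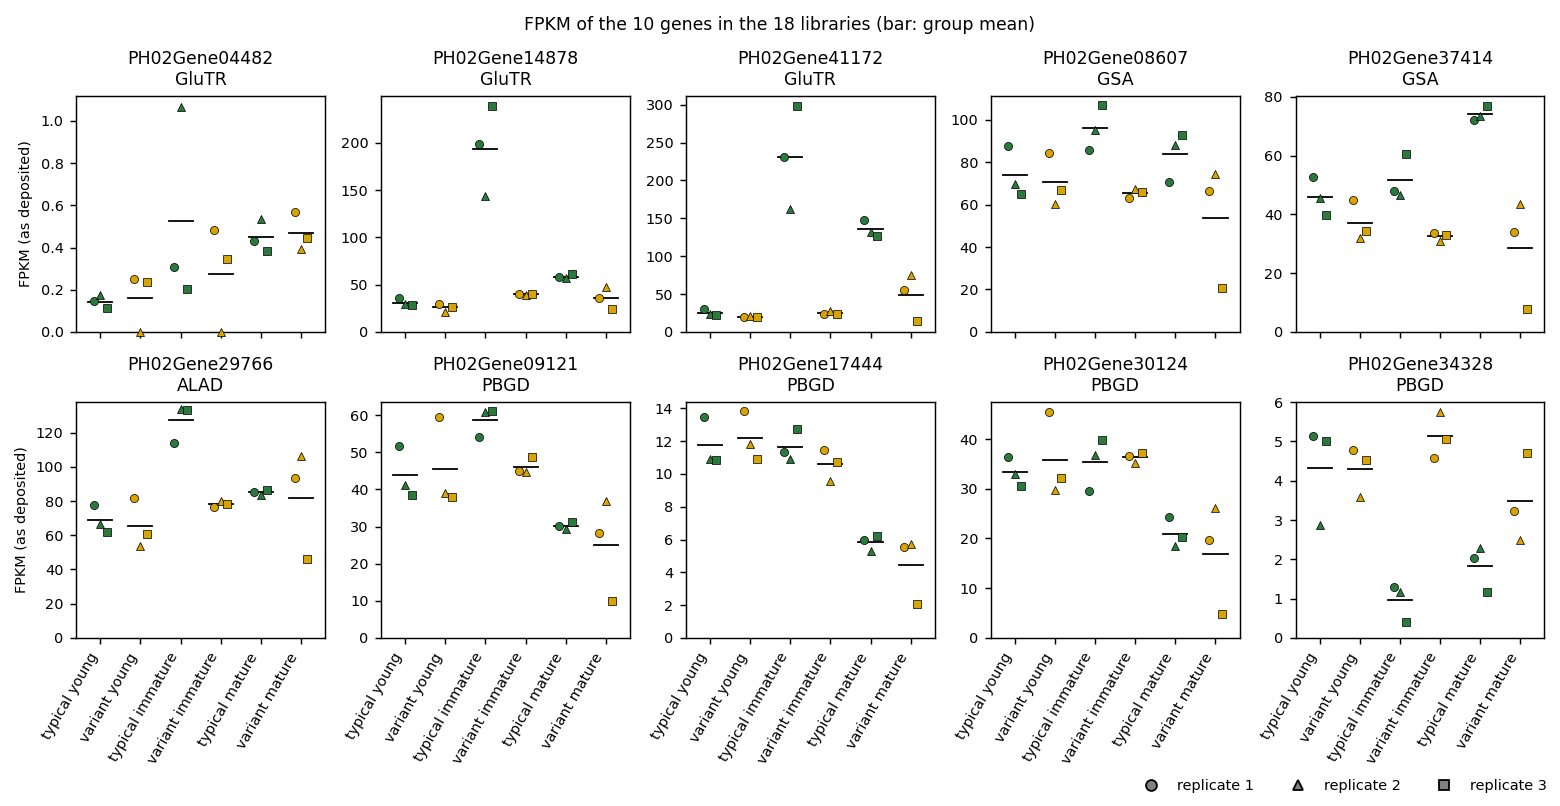
Deposited FPKM of each of the 10 genes (y axis, one panel per gene, linear from 0) in the 6 groups (x axis), with typical libraries in green, variant libraries in gold, circles, triangles and squares for replicates 1, 2 and 3, and a bar at each group mean. Both abundant GluTR genes stand far higher in typical immature leaves (144 to 298 FPKM) than in variant immature leaves (24.1 to 40.7 FPKM), while PH02Gene34328 has the opposite pattern at a low level.

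Among the 10 genes, the largest log2 fold changes between plant types were those of GluTR in immature leaves. PH02Gene41172 (scaffold 5, 40301869 to 40305116, plus strand), which makes the enzyme of the entry step, had 231, 162 and 298 FPKM in typical immature libraries 1 to 3 and 24.1, 28.0 and 24.2 FPKM in the variant immature libraries. Every typical library at this stage was far above every variant library, with means of 230 ± 67.7 and 25.4 ± 2.24 FPKM (SD, n = 3). The edgeR log2 fold change was -3.64 ± 0.44 (standard error, adjusted p = 1.78e-05). In mature leaves the gene had 148, 132 and 127 FPKM in the typical plant and 55.5, 74.6 and 14.3 FPKM in the variant. The groups did not overlap there either, and variant replicate 3 was lowest (log2 fold change -1.80 ± 0.41, edgeR adjusted p = 0.00574, or -1.36 ± 0.24 without that library, 0.00115). In young leaves it stood at 30.6, 23.9 and 21.9 against 19.9, 20.6 and 19.8 FPKM, without overlap. The log2 fold change there was -0.39 ± 0.40 and did not pass (edgeR adjusted p = 0.994).

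PH02Gene14878 (scaffold 13, 128275369 to 128279002, minus strand), the other abundant GluTR gene, had 198, 144 and 239 FPKM in immature leaves of the typical plant and 40.7, 39.0 and 40.5 FPKM in those of the variant. Again the groups lay wide apart, and the log2 fold change was -2.73 ± 0.25 (edgeR adjusted p = 1.71e-06). In mature leaves it had 57.8, 57.1 and 60.8 FPKM in the typical plant and 35.8, 47.5 and 24.0 FPKM in the variant. All 3 variant values were below all 3 typical values (log2 fold change -1.03 ± 0.24, edgeR adjusted p = 0.00634, or -0.79 ± 0.21 without variant mature replicate 3, 0.0155). Young leaves had 35.4, 29.4 and 28.4 against 29.7, 21.5 and 26.4 FPKM, with overlapping groups (log2 fold change -0.31 ± 0.24, edgeR adjusted p = 0.935). When only the 6 mature libraries were fitted, neither GluTR gene passed in mature leaves (edgeR adjusted p = 0.103 for PH02Gene41172 and 0.0801 for PH02Gene14878).

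In the typical plant both genes rose on the way from young to immature leaves, PH02Gene41172 by 3.69 ± 0.44 and PH02Gene14878 by 3.15 ± 0.26 on the log2 scale (edgeR adjusted p = 4.37e-06 and 8.9e-08). They then parted. PH02Gene14878 fell by 1.81 on the log2 scale towards mature leaves (edgeR adjusted p = 8.37e-05), whereas the value of PH02Gene41172, -0.85 ± 0.40, did not pass (edgeR adjusted p = 0.127), though without variant mature replicate 3 in the fit it did (0.00533). In the variant PH02Gene14878 rose by 0.73 ± 0.24 from young to immature leaves (edgeR adjusted p = 0.0162, but 0.0736 without variant young replicate 2). PH02Gene41172 had a value of 0.45 ± 0.40 there, which did not pass (edgeR adjusted p = 0.362). Between immature and mature variant leaves PH02Gene41172 had a value of 0.98 ± 0.40 (edgeR adjusted p = 0.083), which became 1.42 ± 0.23 without variant mature replicate 3 (edgeR adjusted p = 0.0004).

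Ordered by mean level, PH02Gene41172 was highest in typical immature leaves, followed by typical mature leaves at 135 ± 11.1 and variant mature leaves at 48.1 ± 30.8 FPKM. Typical young leaves at 25.5 ± 4.53, variant immature leaves at 25.4 ± 2.24 and variant young leaves at 20.1 ± 0.432 FPKM came last, and typical young and variant immature libraries overlapped. PH02Gene14878 was likewise highest in typical immature leaves at 194 ± 47.8 FPKM and next in typical mature leaves at 58.6 ± 2 FPKM. The other groups lay between 25.9 and 40.0 FPKM on average, and variant mature libraries overlapped with those of variant immature, typical young and variant young leaves.

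The third GluTR gene, PH02Gene04482 (scaffold 16, 24198761 to 24199772, minus strand), was barely detected, with 0 to 48 counts per library. It had 0.309, 1.07 and 0.202 FPKM in typical immature leaves and 0.484, 0.00 and 0.346 FPKM in variant immature leaves. It was listed at 0 in variant young replicate 2 and variant immature replicate 2, and its groups overlapped between plant types at every stage. No comparison called it among the main tests, and a 0 for a gene this low may be a failed estimate. The 3 GluTR genes lie on 3 scaffolds. Where they share reads, the estimate can move counts between them, so single genes are uncertain to that extent.

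The GSA genes had smaller log2 fold changes between plant types in immature leaves than the abundant GluTR genes. PH02Gene08607 (scaffold 13, 47228030 to 47231015, plus strand) had 85.8, 95.1 and 107 FPKM in typical immature leaves against 63.2, 67.2 and 65.7 FPKM in the variant, with no overlap (log2 fold change -1.01 ± 0.33, edgeR adjusted p = 0.0218). PH02Gene37414 (scaffold 22, 5896582 to 5899472, minus strand) had 47.8, 46.7 and 60.5 against 33.8, 30.9 and 33.1 FPKM, also without overlap (log2 fold change -1.12 ± 0.40, edgeR adjusted p = 0.0327). Both immature calls were lost when typical immature replicate 3 or any 1 of the 3 variant immature libraries was left out, with edgeR adjusted p of 0.052 to 0.0663 for PH02Gene08607 and 0.0701 to 0.0974 for PH02Gene37414. They were also lost with library totals in place of TMM scaling (0.215 and 0.207).

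In mature leaves the second GSA gene stood further apart. PH02Gene37414 had 72.2, 73.4 and 77.0 FPKM in the typical plant and 33.9, 43.6 and 7.85 FPKM in the variant, and the highest variant library lay well under the lowest typical one. Its log2 fold change was -1.69 ± 0.40 (edgeR adjusted p = 0.00754), and -1.24 ± 0.20 without variant mature replicate 3 (edgeR adjusted p = 0.000582). When fitted on mature libraries alone it stayed negative but did not pass (edgeR adjusted p = 0.12). PH02Gene08607 had 70.8, 88.2 and 92.7 against 66.5, 74.5 and 20.8 FPKM, and these groups overlapped. Its call (log2 fold change -0.94 ± 0.33, edgeR adjusted p = 0.0496) sat at the threshold and was lost without any 1 of the libraries other than variant mature replicates 2 and 3, with adjusted p between 0.0511 and 0.113. Without variant mature replicate 3 its log2 fold change was -0.55 (edgeR adjusted p = 0.0423). In young leaves the GSA genes had 64.8 to 87.4 and 39.9 to 52.9 FPKM in the typical plant, and 60.3 to 84.3 and 32.0 to 44.8 FPKM in the variant. Neither passed there (edgeR adjusted p = 1 for both).

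From young to immature typical leaves PH02Gene08607 rose by 0.89 ± 0.33 on the log2 scale (edgeR adjusted p = 0.0301), a call lost without typical young replicate 2 or 3 or typical immature replicate 2 or 3 (0.0538 to 0.0972). No other change between neighbouring stages was called for a GSA gene in either plant type. The balance within the pair differed by group: the FPKM of PH02Gene37414 over that of PH02Gene08607 in the same library was 1.02, 0.833 and 0.831 in typical mature leaves. In variant mature leaves this ratio was 0.510, 0.584 and 0.378. All typical mature values were above those of every other group, whose libraries lay between 0.378 and 0.653.

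ALAD is represented by PH02Gene29766 (scaffold 6, 70863557 to 70868145, minus strand), whose enzyme forms the pyrrole unit of the ring. It had 114, 134 and 133 FPKM in typical immature leaves against 76.6, 79.8 and 78.2 FPKM in the variant. The groups did not overlap, and the variant libraries lay close together (log2 fold change -1.15 ± 0.25, edgeR adjusted p = 0.00194). Over 27 alternative fits this log2 fold change was -1.24 to -0.63. The call was lost in 1 of them, which summed the variant immature libraries into 1. In mature leaves the values were 85.2, 83.6 and 86.7 FPKM in the typical plant and 93.3, 106 and 45.8 FPKM in the variant. Here the typical values fell inside the range of the variant, and the log2 fold change of -0.37 ± 0.25 did not pass (edgeR adjusted p = 0.298). Without variant mature replicate 3 it was -0.08 ± 0.18 (edgeR adjusted p = 0.83). Young leaves had 77.9, 66.5 and 62.0 against 81.7, 53.9 and 60.7 FPKM and overlapped (log2 fold change -0.11 ± 0.25, edgeR adjusted p = 1).

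ALAD RNA rose by 1.40 ± 0.26 on the log2 scale from young to immature typical leaves (edgeR adjusted p = 0.000237). The corresponding value in the variant was 0.36 ± 0.25 and did not pass (edgeR adjusted p = 0.241). Typical immature leaves stood highest at 127 ± 11.2 FPKM. The means of the other 5 groups lay between 65.5 and 85.1 FPKM, and the libraries of variant mature leaves, 45.8 to 106 FPKM, spanned that whole range.

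The 4 PBGD genes did not move as 1 block. PH02Gene09121 (scaffold 17, 92121126 to 92124627, minus strand), the most abundant, had 54.0, 60.8 and 61.1 FPKM in typical immature leaves against 45.1, 44.6 and 48.8 FPKM in the variant. These groups did not overlap, yet the log2 fold change of -0.80 ± 0.34 did not pass (edgeR adjusted p = 0.0641). It passed without variant mature replicate 2 or 3 in the fit (0.0324 and 0.00264) and in DESeq2 (adjusted p = 0.0432). The nearest gene to PH02Gene09121 is only 187 bases away, and the protocol describes no step that marks the strand.

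PH02Gene30124 (scaffold 20, 44666625 to 44671445, plus strand) had 29.6, 36.8 and 39.8 against 36.6, 35.3 and 37.2 FPKM in immature leaves, so the variant lay inside the typical range. Its log2 fold change was -0.42 ± 0.40 with TMM scaling and 0.11 with library totals, and neither passed (edgeR adjusted p = 0.415 and 0.856). PH02Gene17444 (scaffold 8, 71822976 to 71827942, minus strand) had 11.4, 10.9 and 12.7 against 11.5, 9.55 and 10.7 FPKM, which overlapped (log2 fold change -0.59 ± 0.28, edgeR adjusted p = 0.0976, or 0.00513 without variant mature replicate 3). In mature leaves none of these 3 genes passed between plant types, with log2 fold changes of -0.58 to -0.71. Without variant mature replicate 3 these were -0.20 for PH02Gene09121, -0.36 for PH02Gene17444 and -0.19 for PH02Gene30124. PH02Gene09121 and PH02Gene17444 did pass there without variant mature replicate 2 (edgeR adjusted p = 0.0435 and 0.038).

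All 3 of these PBGD genes had lower FPKM in every mature than in every immature library of the same plant type. In typical leaves PH02Gene09121 went from a mean of 58.6 ± 4.02 to 30.2 ± 0.913 FPKM and PH02Gene17444 from 11.7 ± 0.954 to 5.84 ± 0.502 FPKM, with log2 fold changes of -1.04 ± 0.34 and -1.08 ± 0.28 (edgeR adjusted p = 0.0295 and 0.00978). The call of PH02Gene09121 was lost without typical immature replicate 2 or 3 or any 1 typical mature library (0.0544 to 0.0868). In variant leaves PH02Gene17444 fell by 1.20 on the log2 scale (edgeR adjusted p = 0.00673). For PH02Gene30124 the values were -0.83 ± 0.40 in typical and -1.05 ± 0.40 in variant leaves, which did not pass (edgeR adjusted p = 0.133 and 0.0656). Without variant mature replicate 3 the typical value of PH02Gene30124 passed (0.00472), and without variant mature replicate 2 the variant values of PH02Gene30124 and PH02Gene09121 passed (0.0171 and 0.0172). Among the main tests PH02Gene09121 was also called higher in immature than young typical leaves, by 0.93 ± 0.34 (edgeR adjusted p = 0.0257), a call lost without typical young replicate 2 or 3 or typical immature replicate 2 or 3 (0.0549 to 0.0855).

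The fourth PBGD gene, PH02Gene34328 (scaffold 6, 31528739 to 31531021, plus strand), went the other way at a low level. It had 1.30, 1.16 and 0.409 FPKM in typical immature leaves against 4.58, 5.75 and 5.07 FPKM in the variant, from 30, 24 and 11 against 86, 103 and 99 counts. Every variant library was above every typical library (log2 fold change 1.96 ± 0.45, edgeR adjusted p = 0.00264). In the typical plant it fell by 1.66 on the log2 scale from young leaves, where it had 2.87 to 5.13 FPKM (edgeR adjusted p = 0.00494). In mature leaves it had 2.03, 2.28 and 1.17 against 3.22, 2.49 and 4.71 FPKM, where the log2 fold change was 0.59 ± 0.44 (not passing, edgeR adjusted p = 0.351). The length that its FPKM implies is 463 bases, against 1911 to 2004 bases for the other 3 PBGD genes, and its values are uncertain as far as it shares reads with them.

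**Figure D2:**
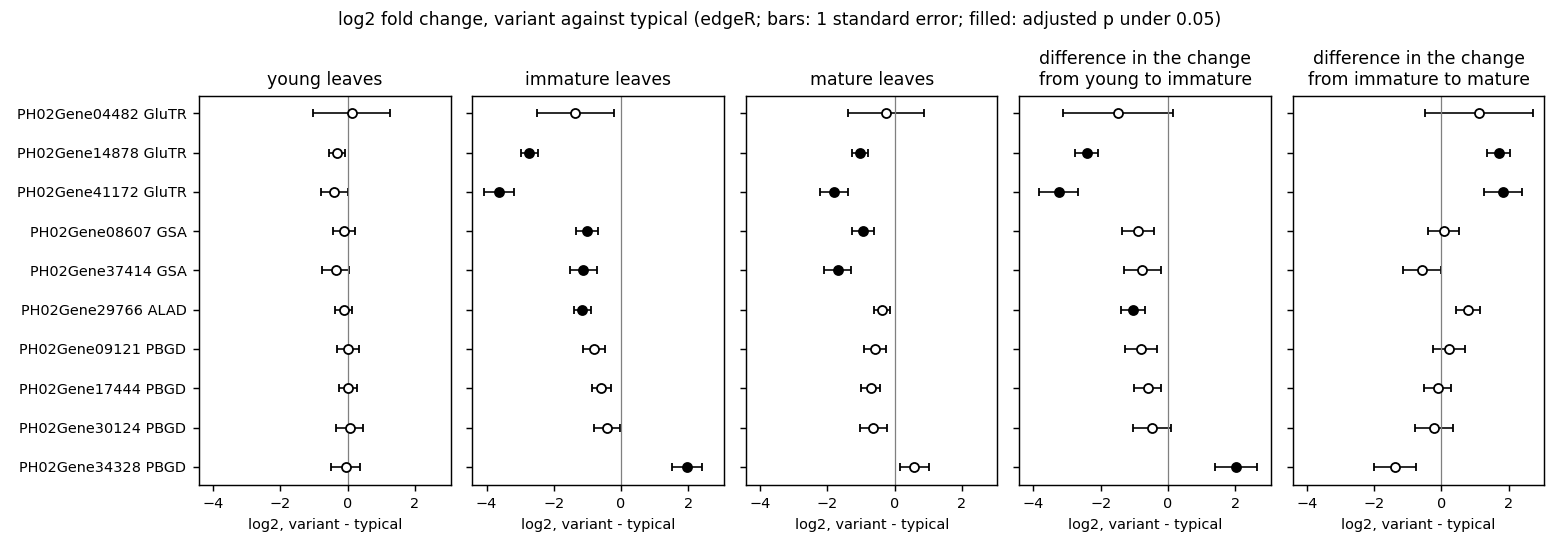
The edgeR log2 fold change of the variant against the typical plant (x axis) for each of the 10 genes (y axis) at each stage, and the difference between plant types in the change from stage to stage, with bars of 1 standard error and filled points where the adjusted p is under 0.05. In immature leaves the 2 abundant GluTR genes are at -3.64 and -2.73 and PH02Gene34328 is at 1.96; the value of PH02Gene30124 there (-0.42) changes sign under library totals (0.11) and is not called.

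The difference between plant types in the change from young to immature leaves was tested as an interaction. It was -3.24 ± 0.58 for PH02Gene41172 and -2.42 ± 0.34 for PH02Gene14878 on the log2 scale (edgeR adjusted p = 0.00108 and 0.000201), so the rise of GluTR RNA in the typical plant was larger than that in the variant. Over 27 alternative fits the value of PH02Gene41172 was -3.44 to -2.78, and its call was lost in 1, with near-alike libraries summed. For ALAD the interaction was -1.04 ± 0.36 (edgeR adjusted p = 0.0421). This call was lost in 15 of 27 alternative fits. Among these were 11 of 18 fits that left out 1 library, which had edgeR adjusted p between 0.0513 and 0.118. Those libraries were typical young 2 and 3, typical immature 2 and 3, typical mature 2 and 3, variant young 1 and 3, and variant immature 1, 2 and 3. For PH02Gene34328 the difference was 2.02 ± 0.62 (edgeR adjusted p = 0.0255), and it was lost without typical young 1 or 3, variant young 2 or 3, or variant immature 2 (0.051 to 0.0604). The GSA genes and the other 3 PBGD genes did not pass, with values of -0.48 to -0.89, although 4 of these 5 genes passed without variant mature replicate 3 (edgeR adjusted p = 0.00781 to 0.0455), PH02Gene30124 being the exception.

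From immature to mature leaves the change was more upward in the variant for both abundant GluTR genes. The interaction was 1.70 ± 0.34 for PH02Gene14878 (edgeR adjusted p = 0.00435), which fell in the typical plant and had a value of -0.11 ± 0.24 in the variant. For PH02Gene41172 it was 1.83 ± 0.57 (edgeR adjusted p = 0.0388). That call was lost in 17 of 27 alternative fits. Among these were 11 of 18 fits that left out 1 library, with edgeR adjusted p between 0.0516 and 0.111. Those libraries were typical young 2, typical immature 1 and 3, typical mature 2 and 3, variant young 3, variant immature 1, 2 and 3, and variant mature 1 and 2. The interaction of ALAD, 0.78 ± 0.36, did not pass with all libraries (edgeR adjusted p = 0.14) and passed without variant mature replicate 3 (0.00462).

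Ratios between genes of the same library do not depend on how libraries are scaled. The FPKM of PH02Gene41172 over that of PH02Gene14878 was 1.16, 1.13 and 1.25 in typical immature leaves against 0.592, 0.719 and 0.597 in the variant. In mature leaves the ratio was 2.56, 2.31 and 2.08 in the typical plant and 1.55, 1.57 and 0.595 in the variant. Neither pair of groups overlapped, with a two-sided exact permutation p of 0.1 for each, the smallest that 3 against 3 libraries allow. In young leaves the typical ratios were lower, at 0.864, 0.811 and 0.773, and the variant ratios of young leaves, 0.670, 0.959 and 0.749, overlapped with these.

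GluTR also shifted against later steps, though not against every step at every stage. Summed FPKM of the 3 GluTR genes over that of the 4 PBGD genes was 0.619, 0.610 and 0.594 in typical young, 4.46, 2.80 and 4.71 in typical immature and 3.30, 3.43 and 3.20 in typical mature leaves. In the variant it was 0.404, 0.499 and 0.543 in young, 0.667, 0.703 and 0.639 in immature and 1.62, 1.72 and 1.80 in mature leaves. The plant types did not overlap at any stage. Variant mature replicate 3, low in nearly every gene here, had a ratio close to that of its group. In that library PH02Gene34328 made up 22.0% of summed PBGD, from 69 counts, against 5.70% and 3.51% in replicates 1 and 2. The closeness therefore depends in part on this low gene. Summed GluTR over ALAD likewise was 3.76, 2.30 and 4.03 against 0.851, 0.839 and 0.832 in immature leaves. Summed GluTR over summed GSA was 3.21, 2.17 and 3.21 against 0.672, 0.682 and 0.658 in immature leaves. In mature leaves that ratio overlapped between plant types, at 1.44, 1.17 and 1.11 against 0.916, 1.04 and 1.35 in the variant. ALAD over summed PBGD was 1.19 ± 0.0253 in typical immature leaves against 0.797 ± 0.0363 in the variant (SD, n = 3). In mature leaves it was 1.45 ± 0.0765 in the typical plant against 1.76 ± 0.335 in the variant, with overlap. In young leaves GluTR over GSA, GluTR over ALAD and ALAD over PBGD were each lower in the variant, without overlap. Of 63 such comparisons of 9 ratios, 40 reached the exact permutation p of 0.1, and the lowest Benjamini-Hochberg adjusted value was 0.158, so none could pass.

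**Figure D3:**
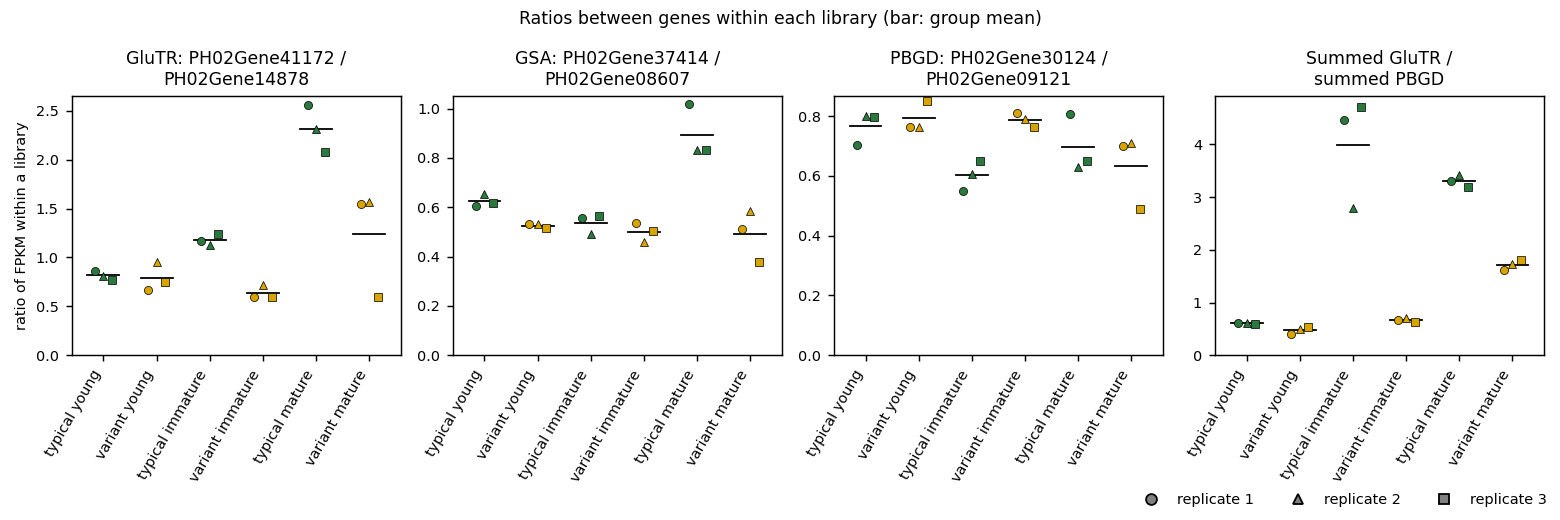
Ratios of FPKM within each library (y axis, linear from 0) in the 6 groups (x axis), with typical libraries in green, variant libraries in gold, circles, triangles and squares for replicates 1, 2 and 3, and a bar at each group mean. The ratio of summed GluTR to summed PBGD lies between 2.80 and 4.71 in typical immature leaves and between 0.639 and 0.703 in those of the variant.

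Levels were also added up by enzyme, on the FPKM scale, which is per length. GluTR had 56.7 ± 8.32, 425 ± 115 and 194 ± 10.1 FPKM at the young, immature and mature stages of the typical plant, and 46.2 ± 3.93, 65.7 ± 1.06 and 84.4 ± 42.4 FPKM in the variant. PBGD had 93.1 ± 11.9, 107 ± 9.27 and 58.8 ± 3.58 FPKM in the typical plant and 97.9 ± 22.3, 98.2 ± 3.29 and 49.7 ± 25.5 FPKM in the variant. By mean, GluTR was the lowest of the 4 enzymes in young leaves of both plant types and in variant immature leaves. It was the highest in typical immature and typical mature leaves. In variant mature leaves its mean lay close to those of GSA, 82.4 ± 47.4, and ALAD, 81.8 ± 31.8 FPKM. GSA had 148 ± 17.7 and 98.0 ± 0.932 FPKM in typical and variant immature leaves, and 158 ± 13.7 FPKM in typical mature leaves.

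The rest of the pathway was read from a list of 41 other tetrapyrrole genes, of which 37 were tested. Between plant types in immature leaves 16 of the 37 were lower and 3 higher in the variant by the edgeR test, with a median log2 fold change of -0.78, or -0.74 without 1 gene listed at 0 in whole groups, against -0.01 for all genes. With library totals the split was 12 lower and 6 higher, at a median of -0.26 against 0.43 for all genes. In young leaves 0 of the 37 were called by edgeR, where 0.17% of all genes were called. Over all genes 23.1% were lower and 21.7% higher in immature leaves (44.9% called). In mature leaves 8 were lower and 0 higher, against 9.65% and 14.9% of all genes (24.5% called). The mature median was -0.66, or -0.31 without variant mature replicate 3. The shares called in immature and mature leaves lie near those of all genes, and the lean to lower values is given as a description. From young to immature typical leaves 22 rose and 2 fell, against 29.2% and 30.4% of all genes. The 24 called there are a share near the 59.6% called over all genes. In the variant 11 rose and 2 fell, against 27.0% and 28.6% of all genes (55.6% called). Without variant mature replicate 3 the counts were 18 and 5, which the shares from the fit with all libraries do not match.

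Just upstream of GluTR, the plastid glutamate-tRNA ligase PH02Gene05621, which loads the substrate, had 16.6 ± 0.657 FPKM in variant against 19.9 ± 1.67 in typical immature leaves (log2 fold change -0.71 ± 0.23, edgeR adjusted p = 0.0183). Regulators of GluTR were read as well. Of 2 genes described as GluTR-binding proteins, which in Arabidopsis hold part of the enzyme at the membrane, PH02Gene38710 was higher in the variant at 21.2 ± 0.579 against 8.62 ± 1.83 FPKM (log2 fold change 0.85 ± 0.27, edgeR adjusted p = 0.0188), and PH02Gene26686 did not pass. Of 3 genes for FLU, the repressor of GluTR known from Arabidopsis and barley, only the least expressed, PH02Gene43729, passed, at 5.23 ± 1.14 against 2.16 ± 0.459 FPKM (log2 fold change 0.82 ± 0.27, edgeR adjusted p = 0.0238). The most expressed FLU gene, PH02Gene35368, had a log2 fold change of -0.83 ± 0.50, which did not pass (edgeR adjusted p = 0.188).

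Downstream of PBGD, 3 of 4 uroporphyrinogen decarboxylase genes were lower in variant immature leaves, the most abundant being PH02Gene26504 at 56.5 ± 0.686 against 114 ± 11.4 FPKM (log2 fold change -1.47 ± 0.35, edgeR adjusted p = 0.00301). Coproporphyrinogen-III oxidase, the next step, did not pass for either gene, nor did ferrochelatase PH02Gene33755, which inserts iron to make haem (log2 fold change -0.19 ± 0.16, edgeR adjusted p = 0.344). On the chlorophyll branch the widest gaps were in 2 magnesium chelatase genes, PH02Gene25454 and PH02Gene25100, at -3.99 ± 0.51 and -3.89 ± 0.55. The Mg-protoporphyrin ester cyclase PH02Gene16028, which closes the fifth ring of chlorophyll, had 222 ± 7.79 against 999 ± 120 FPKM (log2 fold change -2.63 ± 0.53, edgeR adjusted p = 0.00096). The tetrapyrrole-binding protein PH02Gene22997, an activator of the chelatase of the GUN4 type, had 29.1 ± 4.56 against 109 ± 17.3 FPKM (-2.36 ± 0.39, edgeR adjusted p = 0.000228). Heme oxygenase opens haem towards the phytochrome chromophore, but the 4 genes described by this name include a type 2 gene described as probably inactive. Of the 4, PH02Gene36886 (type 1) and PH02Gene04402 (type 2) were lower. The most abundant, PH02Gene39434 (type 1), was higher at 103 ± 5.31 against 43.4 ± 6.36 FPKM (log2 fold change 0.80 ± 0.23, edgeR adjusted p = 0.0104).

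**Figure D4:**
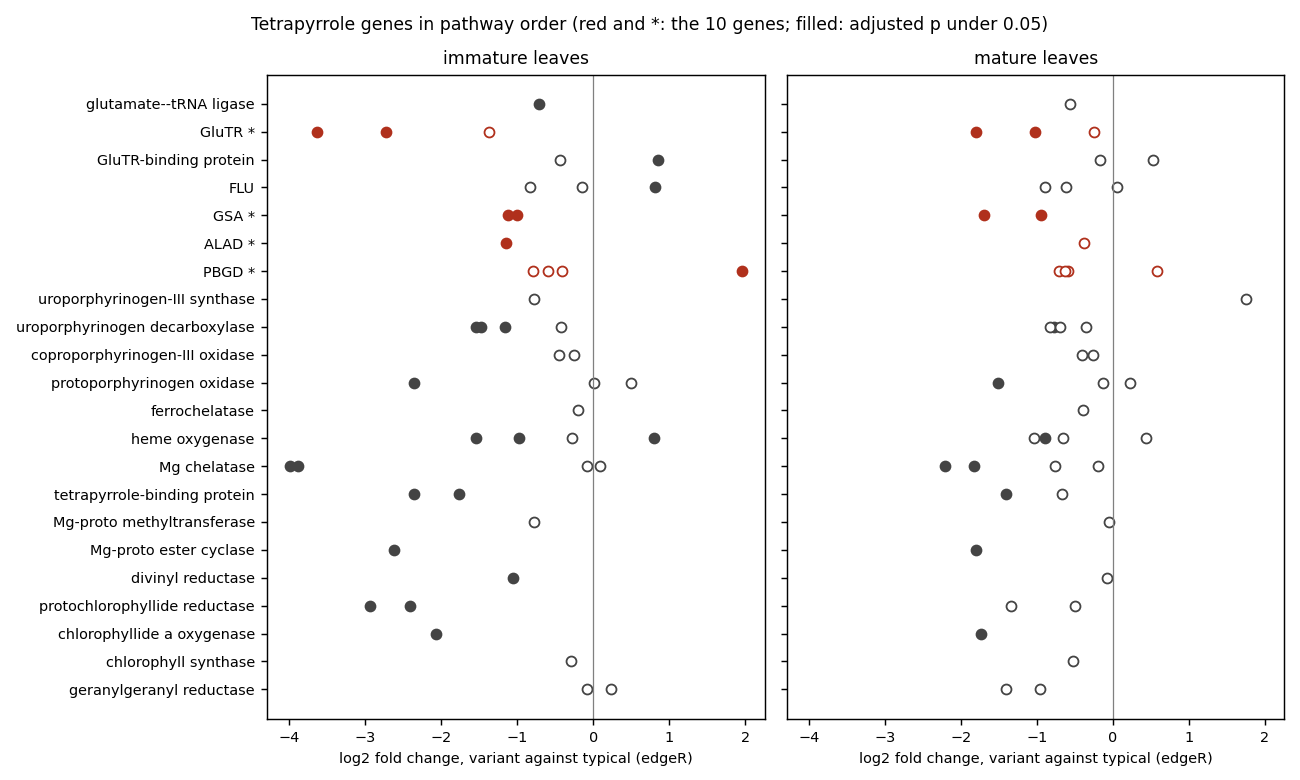
The edgeR log2 fold change of the variant against the typical plant (x axis) in immature and mature leaves for genes of each tetrapyrrole step (y axis, in pathway order), with the 10 early genes in red and marked by an asterisk, other genes in dark grey, and filled points where the adjusted p is under 0.05. Genes with a mean under 0.1 FPKM are not drawn; in immature leaves the early genes span -3.64 to 1.96, and both the lowest GluTR gene and 2 magnesium chelatase genes (-3.99 and -3.89) lie at the far left.

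Across the 18 libraries, log2 CPM (reads scaled to a common library size, TMM scaled, prior count 2) of the 10 genes fell into sets that are given as a description, since the points share libraries, groups and scaling. PH02Gene41172 and PH02Gene14878 had a Pearson r of 0.93 with each other and 0.929 and 0.937 with ALAD PH02Gene29766. The GSA pair had an r of 0.945. The PBGD genes PH02Gene09121, PH02Gene17444 and PH02Gene30124 had r of 0.929 to 0.959 among themselves but 0.273 to 0.534 with PH02Gene41172. PH02Gene34328 had an r of -0.841 with PH02Gene41172.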

How the data were processed

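Leaf RNA of 18 libraries was made into full-length cDNA from poly(A) tails, amplified by PCR and ligated to adapters, per the labels' protocols. Neither a strand mark nor molecular identifiers are described: PCR copies are counted like molecules, and precision from counts covers counting error only. Per the file headers, the table deposited by the authors holds for each library an estimated count of each gene, used here as a whole number. It also holds FPKM (fragments scaled for gene length and library size), as deposited by the authors. Tools named in the submitters' processing notes are cutadapt, FastQC and Salmon. Their versions, the build and the gene models were not given in the sources used here. Coordinates are those of the deposited table, exons and introns were not analysed here, and 41422 of 42520 genes carry a description.

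The quasi-likelihood test of edgeR 4.0.16 (R 4.3.3) was run on the counts, using 6 group means over all 18 libraries with 12 residual degrees of freedom. Genes passed filterByExpr (minimum count 10, minimum total 15), which kept 37595 and removed 4925, including 0 of the 10 genes described. Library sizes were scaled by TMM, whose factors were 0.75 to 0.80 for typical immature libraries, 0.80 to 0.86 for typical mature ones and 1.03 to 1.18 for the rest. Deposited FPKM has no such factor, so in immature and mature leaves variant-to-typical ratios of FPKM exceed the fitted folds. With library totals alone the median gene moved by 0.43 in log2 between plant types in immature and in mature leaves, by -0.57 from young to immature typical leaves and by 0.34 for the first interaction, and changes are given relative to that bulk. Adjusted p is Benjamini-Hochberg over all tested genes, and calls are at 0.05. Standard errors are the log2 fold change divided by the root of F. Ratios within libraries were compared by two-sided exact permutation tests, which cannot go below 0.1 with 3 against 3 libraries. The scripts were tested on simulated data.

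Alternatives were edgeR with RLE factors, library totals, no filter, a replicate block, only the groups compared or 1 library left out, DESeq2 1.42.0, and limma 3.58.1 on log2(FPKM + 1) and log2(FPKM + 0.1). Near-alike libraries summed (14 left) were added after seeing the data, with a limit of 15 on chi-square per degree of freedom over genes with a mean count of 50 or more. No pair of libraries agreed within sampling noise (lowest 9.68).

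The members, lists and tests were chosen with earlier results of these data known. Named were all 10 genes and the 5 genes most like PH02Gene41172 and PH02Gene29766 by Pearson r. Other tetrapyrrole genes could be named if called in immature leaves or of highest mean FPKM for their enzyme. Only a part of these is named, so the named ones are not a full account of the later steps. Lists came from searching the descriptions: other tetrapyrrole genes, mesophyll, xylem and secondary wall, phloem, meristem, dividing cells and epidermis.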

Additional observations from a re-analysis of the deposited data

Results flagged for a closer look

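In 6 cases the change from one stage to the next differed between the plant types by the interaction test of edgeR, which is why these are listed. From young to immature leaves the difference, variant less typical on the log2 scale, was -3.24 for GluTR PH02Gene41172, -2.42 for GluTR PH02Gene14878, -1.04 for ALAD PH02Gene29766 and 2.02 for PBGD PH02Gene34328. From immature to mature leaves it was 1.70 for PH02Gene14878 and 1.83 for PH02Gene41172. Over all tested genes the median of these differences was -0.09 and 0.12, and 26.3% and 17.4% of genes were called.

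Groups of 3 libraries are too small for a test of single outlying values. Mesophyll markers differed between the plant types at the same stages, and their part in these differences was not tested.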

How the results depend on the processing

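Of 90 values (10 genes in 9 comparisons) 27 were called. None of the 27 changed sign under any of 27 alternatives, while 24 uncalled values did under at least 1. Among uncalled values between plant types, PBGD PH02Gene30124 in immature leaves turned from -0.42 to 0.11 with library totals and to 0.047 and 0.048 with limma at pseudocounts of 1 and 0.1. GluTR PH02Gene04482 in mature leaves turned from -0.25 to 0.098, 0.019 and 0.048 under the same settings.

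Counts of called genes moved by over 1.5 times as follows. Between plant types, 6 calls in immature leaves became 3 with near-alike libraries summed, and 4 in mature leaves became 1, or 0 with only the groups compared. In the typical plant, 6 calls from young to immature leaves became 10 with only the groups compared, and 3 from immature to mature leaves became 6 with only those groups and 1 with near-alike libraries summed. In the variant, 1 call from young to immature leaves became 2 with only those groups and 0 with near-alike libraries summed. There the 1 call from immature to mature leaves became 3 with library totals and with both limma fits, 2 with DESeq2, and 0 with only those groups or near-alike libraries summed. For the interactions, 4 calls from young to immature became 8 with only those groups and 1 with near-alike libraries summed. The 2 calls from immature to mature became 1 with library totals, with only those groups and with both limma fits, and 0 with near-alike libraries summed. Summing left 1 library in variant immature leaves, assumed to vary like the other groups, and 2 each in typical young and typical mature leaves, so these fits have fewer samples. Leaving out 1 library at a time gave 4 to 8 calls between plant types in immature and 3 to 6 in mature leaves, and 0 in young leaves. Between stages it gave 4 to 9 and 2 to 6 in the typical plant and 0 to 1 and 1 to 3 in the variant, and for the interactions 2 to 8 and 1 to 3.

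Replicate numbers did not pair the libraries. Deviations of same-numbered libraries from their group means had r of -0.225 to 0.384, over 0.1 in 9 of 45 pairs and in all 3 pairs of 0 of 15 pairs of groups, and in 0 of the 15 did every library correlate best with its own number. With a replicate block the immature to mature interaction had 1 call in place of 2, the mature comparison 3 in place of 4, and the others the same count. The limits are 3 libraries per group, 1 library that stood apart, gene names from other species and PCR copies that cannot be told from molecules. The estimated counts can be shared between genes of 1 family, and PH02Gene04482 and PH02Gene34328 rest on at most 48 and 135 counts per library.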

Other observations

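Outside the 10 genes, PH02Gene02803, described only as a hypothetical protein, carries the enzyme number of ALAD in the deposited table. It had 35.3, 31.4 and 44.9 FPKM in typical immature and 21.3, 20.3 and 18.1 FPKM in variant immature leaves, with no overlap (log2 fold change -1.36 ± 0.20, edgeR adjusted p = 8.21e-05). In mature leaves it had 59.0, 45.3 and 45.9 against 21.1, 20.6 and 31.6 FPKM (log2 fold change -1.37 ± 0.20, edgeR adjusted p = 0.000308). From young to immature leaves it rose by 3.82 ± 0.22 on the log2 scale in the typical plant and by 2.18 ± 0.20 in the variant (edgeR adjusted p = 4.12e-09 and 6.8e-07). It was singled out for its enzyme number, and whether it encodes an ALAD was not tested.

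The genes most like PH02Gene41172 over the 18 libraries, by Pearson r of log2 CPM, were the chloroplast phosphoglycerate kinases PH02Gene02355 (0.994) and PH02Gene21019 (0.988), PH02Gene47892 of no known function (0.991), the rhodanese-like protein PH02Gene39401 (0.991) and the Rubisco small subunit PH02Gene44261 (0.987). In all, 139 genes had an r above 0.95 with it. For ALAD PH02Gene29766 they were PH02Gene36814, uncharacterized (0.982), the chlorophyll a/b binding protein PH02Gene27080 (0.978), the thylakoid lumen protein PH02Gene29771 (0.970), PH02Gene45462, hypothetical (0.966), and the triose phosphate translocator PH02Gene39003 (0.966), and 31 genes were above 0.95. The points share libraries, groups and scaling, so these values describe likeness only.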
